A study of Mus musculus with 8 samples.

Results

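The genes that import, phosphorylate, deaminate and sense adenosine were examined in mouse fibroblasts given cordycepin, a compound that differs from adenosine only by the missing 3′ hydroxyl of its ribose. The set comprised 10 genes chosen by their role: Slc29a1 and Slc29a2 for uptake, Adk for phosphorylation, Ada, Ampd2 and Ampd3 for deamination, Nt5e for formation of adenosine outside the cell, and the receptors Adora1, Adora2a and Adora2b. Every non-control probe annotated to one of these genes was taken, which gave 13 of the 55681 probes of the array and 10 of its 35715 gene and transcript names, and all 13 carried a RefSeq accession that matched the same gene.

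Adenosine crosses the plasma membrane by facilitated diffusion through equilibrative nucleoside transporters, of which Slc29a1 encodes ENT1 and Slc29a2 encodes ENT2. Inside the cell, adenosine kinase (Adk) converts it to AMP and adenosine deaminase (Ada) to inosine, while the AMP deaminases act on AMP itself. Outside the cell, the ecto-enzyme CD73 (Nt5e) releases adenosine from AMP, and the G-protein-coupled receptors detect it: the A1 receptor (Adora1) lowers cyclic AMP, and the A2 receptors (Adora2a, Adora2b) raise it. Cordycepin is known to be phosphorylated by adenosine kinase and inactivated by adenosine deaminase. Only mRNA was measured here, not the proteins, their activity or how the cells handled cordycepin.

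The cells were NIH3T3, an immortalised line of mouse embryonic fibroblasts, held in 0.5% newborn bovine serum for 24 h. One group received 20 µM cordycepin in DMSO and, 60 min later, serum, so that RNA was taken after 90 min of cordycepin and 30 min of serum (3 arrays). A second group received 0.1% DMSO and serum on the same schedule (3 arrays), and the third stayed starved without added serum (2 arrays). The labels do not say whether the starved cells received DMSO, so in comparisons with them serum or cordycepin and the vehicle cannot be told apart. A single cell line was studied, and cordycepin was always combined with serum. Levels are given as the log2 of the background-corrected signal minus the array's 75th percentile, so that 0 is the signal of that percentile, and a level is comparable between arrays but not between probes. A probe was called changed where its adjusted p from limma was below 0.05 and its log2 fold change reached 1 in either direction. Since the labels do not say whether replicates came from separate cultures, p-values measure the spread between these samples only. As in any bulk measurement, fewer cells that carry a transcript cannot be told apart from less of it per cell.

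The arrays gave a 75th percentile signal of 350.2 to 802 units, no saturated spot and 51.1 to 57.1% of probes well above background. Arrays of one group correlated at 0.992 or more. Fos, an immediate early gene that serum induces, had a log2 level of 0.38 to 1.32 without serum, 5.51 to 5.89 with serum and 3.74 to 4.27 with cordycepin and serum, so the serum labels held. All 10 of the fibroblast markers looked for, among them Col1a1, Vim and Thy1, were well above background on every array.

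Of the 13 probes, 11 probes of 8 genes were well above background throughout at least 1 of the groups and were tested. Adora2a met this rule only through the cordycepin arrays, where it was high. Nt5e and Adora1 were not well above background on any of the 8 arrays, with log2 levels between -8.1 and -6.97 and no difference that could be read from them. The results turned on the probes of the A2 receptors. The Adora2a probe lies at bases 2527 to 2586 of its RefSeq transcript, and 1 of the Adora2b probes lies at bases 1723 to 1782. Both hold a polyadenylation hexamer, the signal that directs cleavage and tail addition shortly downstream. It is shown here because cordycepin is classically known as an inhibitor of polyadenylation, and because the labelling kit named in the labels is known to prime from the poly(A) tail. Windows of 30 bases around the hexamer (in capitals), 5′ to 3′ on the plus strand in mm9, read as follows.
Adora2a, chr10:74797490-74797519: cccctgagataaAATAAAatgagccacact
Adora2b 3′ probe, chr11:62079844-62079873: cttctcttccacATTAAAgtttattgggac
The hexamer AATAAA occurred in 10.1% and ATTAAA in 3.95% of the 55681 probes of the array, searched on the probe strand only. None of the other 11 member probes held either. The second Adora2b probe lies 1080 bases nearer the 5′ end, at bases 643 to 702, and is printed whole, with no capitals since no hexamer is in it.
Adora2b 5′ probe, chr11:62078754-62078813: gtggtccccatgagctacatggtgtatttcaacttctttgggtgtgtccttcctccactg

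**Figure D1:**
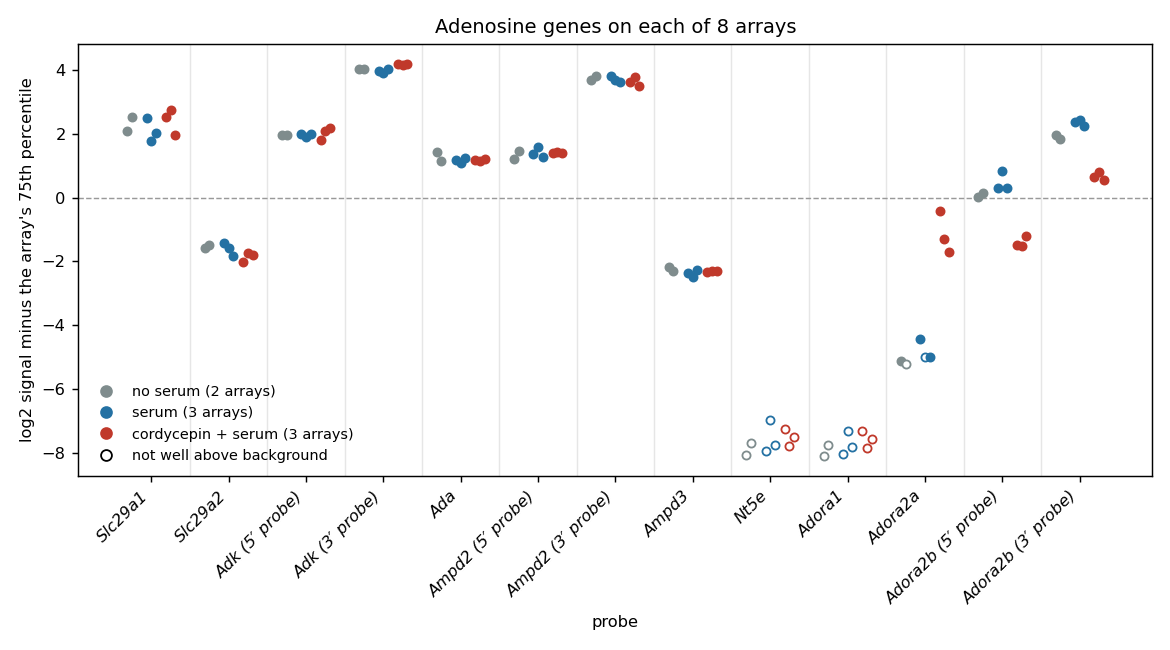
Level of each of the 13 probes (x axis, ordered by role) on the 8 arrays, as log2 signal minus the array's 75th percentile (y axis). Grey points are arrays without serum, blue with serum and red with cordycepin and serum, and open points were not well above background. The red points stand apart from the blue upwards for Adora2a and downwards for both Adora2b probes, while Nt5e and Adora1 are open on all arrays.

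The first question was what cordycepin did to these mRNAs in serum-stimulated cells. Among the 11 probes tested against serum alone, 3 were called: Adora2a was higher and both Adora2b probes were lower. Of all 30859 probes tested, 10.5% were called, 7.66% as higher and 2.86% as lower. The 8 probes of the transporters, the kinase and the deaminases had log2 fold changes of -0.25 to 0.31, with 95% confidence intervals that together ran from -0.57 to 0.90, inside the limit of 1. The median log2 fold change of all probes was 0.10, and that of these 8 probes was 0.03.

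Slc29a1, which encodes ENT1, had log2 levels of 2.53, 2.73 and 1.97 with cordycepin against 2.50, 1.79 and 2.01 with serum alone. The groups overlapped. The difference was 0.31 ± 0.25 (SE), with a 95% interval of -0.28 to 0.90 and an adjusted p of 0.432 by limma. Slc29a2, which encodes ENT2, had levels of -2.02, -1.74 and -1.81 with cordycepin and -1.42, -1.57 and -1.82 with serum. These also overlapped, and the difference of -0.25 ± 0.14 had an interval of -0.57 to 0.06 (adjusted p = 0.244, limma).

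Adk, the kinase that turns cordycepin as well as adenosine into a monophosphate, was read by a pair of probes. Its 3′ probe had log2 levels of 4.18, 4.14 and 4.20 with cordycepin and 3.97, 3.89 and 4.04 with serum. The cordycepin arrays were the higher ones without overlap, an absence of overlap in either direction that 40.2% of all probes tested showed and 4 of the 11 member probes. The difference was 0.20 ± 0.10, with an interval of -0.02 to 0.43, and did not pass the test (adjusted p = 0.185, limma). The 5′ probe of Adk showed overlapping levels of 1.79, 2.07 and 2.17 against 1.99, 1.89 and 2.00, a difference of 0.05 ± 0.12.

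Ada, which deaminates adenosine and cordycepin, had log2 levels of 1.18, 1.13 and 1.20 with cordycepin and 1.17, 1.07 and 1.23 with serum. The cordycepin levels lay within the range of the serum levels. The difference of 0.01 ± 0.11 had an interval of -0.24 to 0.27. Ampd2, the AMP deaminase of most non-muscle tissues, gave -0.08 ± 0.12 on its 3′ probe and -0.0049 ± 0.12 on its 5′ probe. Ampd3, the erythrocyte form, gave 0.07 ± 0.10, with levels of -2.34 to -2.30 beside -2.50 to -2.28. For all of these deaminase probes the arrays of both groups overlapped.

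Adora2a had log2 levels of -0.43, -1.30 and -1.70 with cordycepin and -4.42, -5.00 and -5.00 with serum alone. The groups were far apart. The probe was well above background on all 3 cordycepin arrays, on 2 of 3 serum arrays and on 1 of 2 arrays without serum, so the serum level lay at the edge of what the array could read. The log2 fold change was 3.66 ± 0.31 (SE), or 12.7-fold higher with a 95% interval of 7.69 to 20.9 (adjusted p = 1.15e-04, limma). The size depended on the background correction and the offset run with it. Normexp correction was run with an offset of 50 units added to every signal. It gave a log2 fold change of 1.85 ± 0.21, still called (adjusted p = 8.28e-05, limma). The serum signals of Adora2a were 14.9 to 29.2 units before scaling, and the shares of correction and offset were not separated. Under the 20 alternative settings that tested it, Adora2a was called each time, with log2 fold changes between 1.85 and 3.94. It met the filter only through the cordycepin group, where it was high. All settings drew on the same 8 arrays, so these calls are no separate evidence. The requirement of a signal well above background on all 8 arrays left Adora2a untested.

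Adora2b moved the other way on both probes. On the 3′ probe the log2 levels were 0.64, 0.81 and 0.55 with cordycepin and 2.36, 2.44 and 2.24 with serum alone. On the 5′ probe they were -1.49, -1.51 and -1.21 against 0.29, 0.85 and 0.29. Every cordycepin array lay below every serum array on both probes. The log2 fold change was -1.68 ± 0.12 for the 3′ probe, a 3.20-fold lower level with an interval of 2.66 to 3.85 (adjusted p = 4.70e-05, limma). The 5′ probe gave -1.88 ± 0.18, a 3.67-fold lower level with an interval of 2.77 to 4.86 (adjusted p = 1.76e-04, limma). The intervals of the probe with the hexamer and of the probe 1080 bases nearer the 5′ end overlapped. Taken within each array, the 5′ level minus the 3′ level was -2.07 ± 0.28 (SD, n = 3) with cordycepin and -1.87 ± 0.25 (n = 3) with serum, a difference of -0.20 (exact permutation test, two-sided, p = 0.4, where 0.1 is the smallest p that 3 against 3 can give).

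A level relative to the 75th percentile moves with the scaling of the array. When arrays were centred on the E1A spike-in probes instead, whose level relative to the 75th percentile ranged from -0.08 to 1.86 between arrays, the Adora2b fold change on the 3′ probe stayed at -1.70 but its SE grew to 0.73 and the call was lost (adjusted p = 0.363, limma). Adora2a kept its call. The difference between 2 probes of the same array does not depend on scaling. The level of Adora2a minus that of the Adora2b 3′ probe was -1.07, -2.11 and -2.25 with cordycepin and -6.78, -7.44 and -7.24 with serum, a shift of 5.34. Adora2b minus the 3′ probe of Adk shifted by -1.88, from -1.80 to -1.45 with serum to -3.65 to -3.33 with cordycepin. Adora2a minus Adk shifted by 3.46. These pairs were chosen after the values were seen, so the shifts are a description and their separation is no further evidence. Both shifts that involve Adora2a rest on serum signals at the edge of detection.

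**Figure D2:**
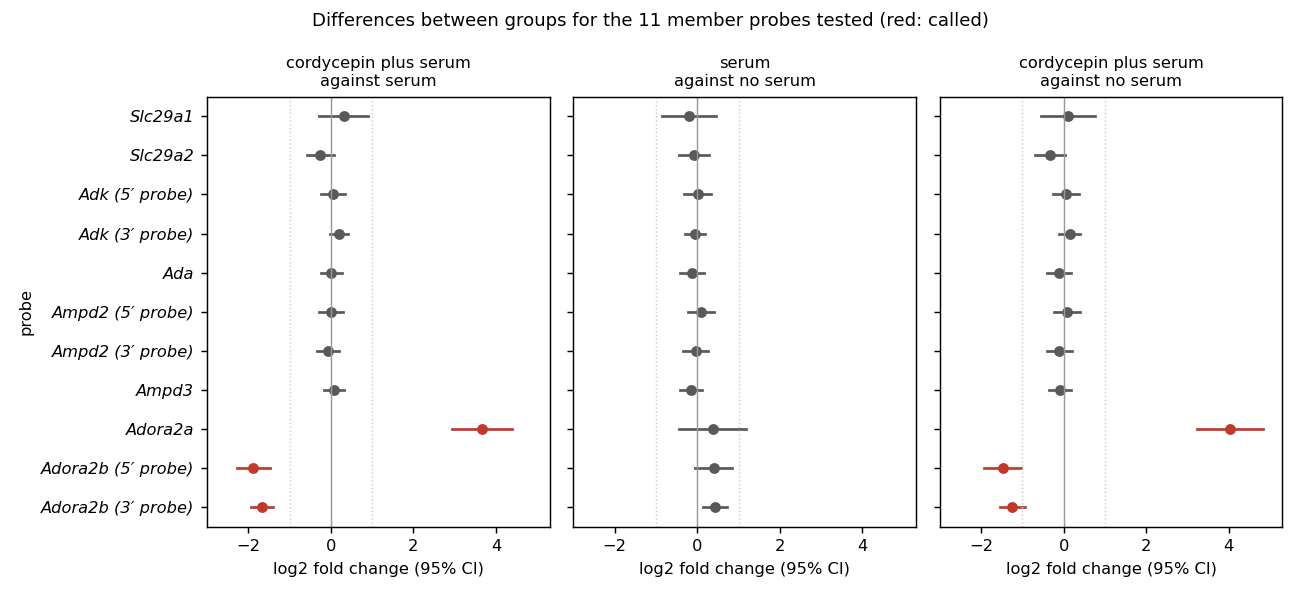
Log2 fold change (x axis) with its 95% confidence interval for the 11 probes tested (y axis), in cordycepin plus serum against serum, serum against no serum, and cordycepin plus serum against no serum. Red probes were called, and dotted lines mark a log2 fold change of 1 in either direction. Adora2a lies at 3.66 and 4.03 in the comparisons with cordycepin and the Adora2b probes between -1.88 and -1.25, and no probe is red in the middle panel.

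The levels of other cell types' markers were set beside the receptor results. Among blood markers, Cd68 rose by 3.04 ± 0.22 on the log2 scale, and the summed log2 level of 4 blood genes was 3.90 to 4.10 with serum and 4.75 to 5.08 with cordycepin. Of these 4 genes, 3 were well above background on all arrays. Itgam had a log2 fold change of 0.64 ± 0.15 (adjusted p = 0.0214, limma), under the minimum for a call, and Cd3e one of 0.14 ± 0.19 (adjusted p = 0.654, limma). Ptprc, which marks all leukocytes, was well above background on 1 array of each of these groups and was not tested, with mean log2 levels of -5.71 with cordycepin and -5.60 with serum. The neuronal list of 4 genes included Gfap, which marks glia. The summed level of the list was 3.20 to 3.35 with serum and 3.68 to 4.19 with cordycepin. Snap25, the only one of them well above background on all arrays, had mean levels of 3.26 with serum and 3.93 with cordycepin. Endothelial genes (2.30 to 2.79 with serum, 2.47 to 2.65 with cordycepin) and epithelial genes (-2.70 to -2.50 and -2.67 to -2.45) overlapped between the groups. The part of these genes in the receptor results was not tested.

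Genes whose probes the array's coordinates place near the receptors on the same strand, chosen after the values were seen, were set beside them. Specc1l, whose probe lies 23.75 kb upstream of the Adora2a probe, had a log2 fold change of -0.15 ± 0.18 with cordycepin (adjusted p = 0.585, limma). The array's coordinates place a probe named Gm5779 17.78 kb downstream of Adora2a and one named Rplp0 at 18.19 kb. They had 0.33 ± 0.11 (adjusted p = 0.0806, limma) and 0.19 ± 0.11 (adjusted p = 0.256, limma). Whether these bright probes, with mean log2 levels of 6.28 and 8.60 with serum, read transcripts of that locus was not tested. Specc1, 42.3 kb upstream of the Adora2b probe, had -0.16 ± 0.11 (adjusted p = 0.332). A probe without a gene name, 17.28 kb downstream of Adora2b, had 0.30 ± 0.12 (adjusted p = 0.134). Ttc19, about 50 kb downstream of Adora2b, had -0.44 ± 0.12 and -0.59 ± 0.12 on its probes and passed the adjusted p (0.0339 and 0.0112, limma) without reaching the minimum fold change.

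The response to serum itself was examined next, in cells without cordycepin. The serum arrays are the same as in the comparison above. None of the 11 probes was called, where 1.75% of all probes were, and 1 probe had an unadjusted p under 0.05. That was the 3′ probe of Adora2b, with log2 levels of 1.97 and 1.85 without serum and 2.36, 2.44 and 2.24 with serum. All serum arrays lay above both starved arrays, one of 3 member probes without overlap here, beside 23.4% of all probes. The difference was 0.43 ± 0.13 (interval 0.14 to 0.73), with an unadjusted p of 0.00975 and an adjusted p of 0.190 by limma. The 5′ probe gave 0.40 ± 0.20 (interval -0.05 to 0.85, adjusted p = 0.598), also without overlap. Adora2a had levels of -5.13 and -5.23 without serum, and its difference of 0.37 ± 0.35 did not pass (interval -0.44 to 1.18, adjusted p = 0.998). The transporters, the kinase and the deaminases differed by -0.20 to 0.09, with intervals that together ran from -0.86 to 0.46. With 3 arrays against 2, a change of these sizes could not be told from the spread.

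Cordycepin plus serum was also compared with the starved cells, which shows whether a level ended above or below its starting point. Here again 3 of 11 probes were called, beside 9.48% of all probes (6.52% higher and 2.97% lower). Adora2a was 4.03 ± 0.35 higher on the log2 scale (16.4-fold, interval 9.36 to 28.6, adjusted p = 2.01e-04, limma). Its probe was well above background on only 1 of the 2 starved arrays. Normexp correction with its offset gave a smaller log2 fold change of 2.10 ± 0.24, also called (adjusted p = 1.09e-04, limma). Adora2b was lower, at -1.25 ± 0.13 on the 3′ probe (2.37-fold, interval 1.93 to 2.91, adjusted p = 4.70e-04) and -1.48 ± 0.20 on the 5′ probe (2.78-fold, interval 2.03 to 3.81, adjusted p = 0.00159). With cordycepin, Adora2b thus lay below its level in starved cells. The remaining 8 probes differed by -0.33 to 0.14, and none had an adjusted p below 0.206. This comparison shares its arrays with the other comparisons, so the calls are not separate evidence.

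**Figure D3:**
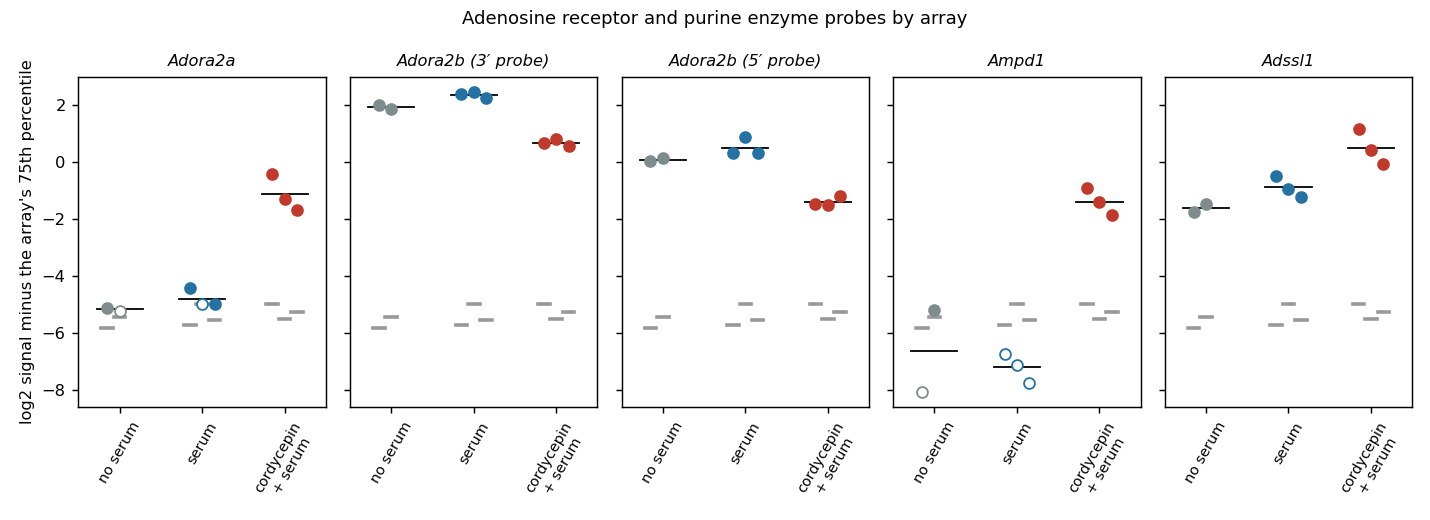
Levels of Adora2a, the Adora2b probes and the enzyme genes Ampd1 and Adssl1 on each array (y axis, log2 signal minus the array's 75th percentile), by group (x axis), with black lines at the group means. Open points were not well above background, and short grey bars mark the lowest level among probes well above background on the same array. The serum points of Ampd1 all lie below the bars, while those of Adora2a lie at or above them. On serum arrays 1, 2 and 3, Adora2a is at -4.42, -5.00 and -5.00 beside bars at -5.72, -5.01 and -5.55.

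The wider pathway was described with 53 further genes of nucleoside transport, adenosine formation, nucleotide kinases, deamination and salvage, de novo purine synthesis and the A3 receptor, taking for each gene the probe with the highest mean. Of these, 42 were tested. Against serum alone, 2 of 42 were called higher with cordycepin and none lower, while 3.67% of 13420 mRNA genes were called higher and 2.51% lower. Of these 2, Ampd1 entered the 42 only through the cordycepin arrays, so the filter largely set its direction. The median log2 fold change of the 42 genes was 0.15, and that of the mRNA genes was 0.07. Neither Adora3, the A3 receptor, nor the concentrative transporter Slc28a2, Slc29a4 or the ecto-enzyme Entpd1 was well above background on any cordycepin or serum array.

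Ampd1, the AMP deaminase of skeletal muscle, had log2 levels of -0.92, -1.43 and -1.88 with cordycepin. On the serum arrays its levels were -6.74, -7.15 and -7.78, none of them well above background. Measured against the lowest signal well above background on each serum array, it was 16.1-fold higher with cordycepin. This is an approximate bound, since a probe above that lowest signal can still fail the flag. On serum array 2, Nt5c1a failed it at -4.96, where the lowest flagged level was -5.01. That bound holds for this background correction only. The fitted log2 fold change of 5.81, which rests on those serum signals, had an adjusted p of 4.82e-04 by limma. Normexp correction with its offset gave a log2 fold change of 2.13 ± 0.22, below the bound but also called. Ampd1 met the filter only through the cordycepin arrays, where it was high. Without serum, 1 of 2 arrays was well above background (-8.08 and -5.21), and the fold change against these was 5.23 ± 0.74 on the log2 scale (adjusted p = 0.00217, limma). That value ran from 2.25 with normexp correction to 6.67 between settings. The other AMP deaminase genes, Ampd2 and Ampd3, were well above background on every array and had differences of -0.08 to 0.07.

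Adssl1, the muscle form of adenylosuccinate synthase, which makes the precursor of AMP from IMP, had log2 levels of 1.13, 0.41 and -0.09 with cordycepin and -0.52, -0.96 and -1.23 with serum. The cordycepin arrays were higher without overlap. The difference was 1.39 ± 0.31 (adjusted p = 0.0151, limma), but without serum replicate 3 it was 1.22 ± 0.34 and the call was lost (adjusted p = 0.0518). Against starved cells it was 2.10 ± 0.35 (adjusted p = 0.00459). Ampd1 and Adssl1 were the only 2 of the 42 called in that comparison, both higher, where 3.61% of mRNA genes were higher and 1.97% lower. Here too Ampd1 was among the 42 only through the cordycepin arrays. The Adssl1 probe also holds the hexamer AATAAA, shown in capitals in the 30 bases at chr12:113879515-113879544 on the plus strand of mm9.
Adssl1: gagccatgtcatAATAAAcatagccagggg
Adss, the other synthase gene, had a difference of -0.19 ± 0.20 (adjusted p = 0.547).

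By list, the 2 nucleoside transporters tested had differences of 0.07 and 0.19, and the 9 genes of adenosine formation ran from -0.18 to 0.61 (Entpd2), none called. Among the 11 kinases tested, 2 passed the adjusted p without the minimum fold change: Ak4, a mitochondrial adenylate kinase, at -0.86 ± 0.25 (adjusted p = 0.0441, limma), and Dguok, the mitochondrial deoxyguanosine kinase, at 0.39 ± 0.10 (adjusted p = 0.0261). Ak4 had levels of 1.39, 1.65 and 1.07 with cordycepin and 2.46, 2.39 and 1.82 with serum, and was called at -1.06 when serum replicate 3 was left out (adjusted p = 0.0233, limma). The 13 genes of de novo synthesis had a median of 0.16, and apart from Adssl1 none was called. In response to serum alone, none of the 42 genes was called, where 0.917% of mRNA genes were. A single one, Enpp3, an ecto-phosphodiesterase, had an unadjusted p under 0.05, at 0.48 ± 0.12 (adjusted p = 0.104, limma).

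**Figure D4:**
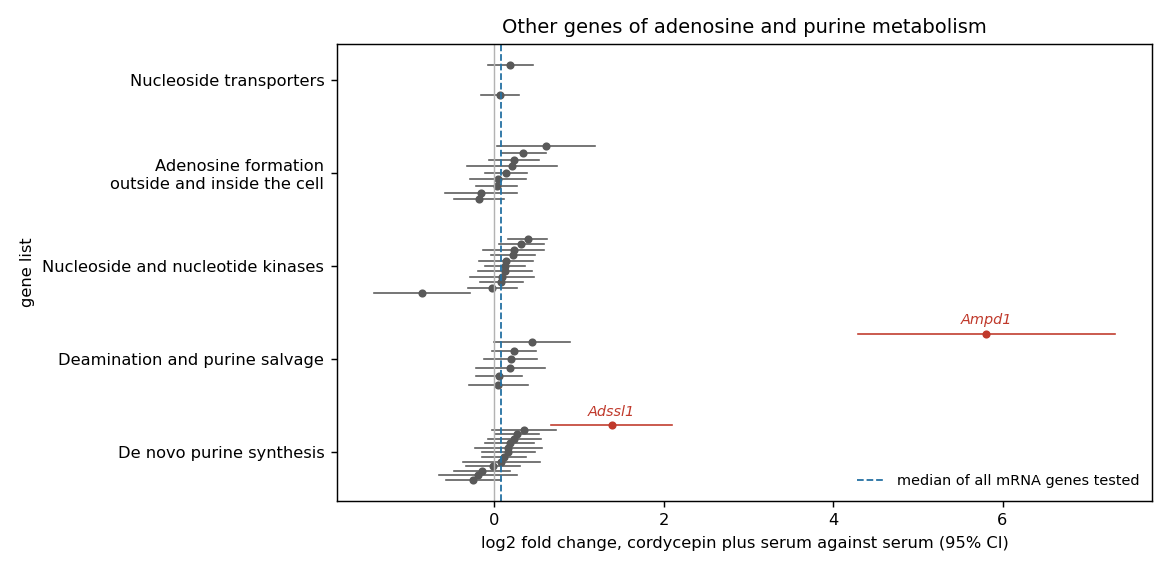
Log2 fold change of the 42 other pathway genes tested (points, with 95% confidence intervals) in cordycepin plus serum against serum (x axis), by gene list (y axis). Red marks the called genes Ampd1 and Adssl1, and the dashed line is the median of all mRNA genes tested, at 0.07. Most points lie within 0.5 of that line, and the fitted value of Ampd1, 5.81, rests on serum signals not above background.

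Promoter windows were available for 9 of the 10 genes, from RefSeq on GRCm38.p6, as 21 windows of the 250 bases before a transcription start. They were searched on both strands for motifs of factors that serum or cyclic AMP act through. The cyclic AMP response element TGACGTCA occurred in none of these windows and in 1.55% of all 32851 windows, and its shorter form TGACG in 1 window each of Adk and Slc29a1 (17.8% of all windows). The EGR motif GCGGGGGCG had 1 match in the single Adora2b window, at -40 to -32 from the start, and 2 overlapping matches in a window of Adora1, beside 2.57% of all windows with at least 1 match. The AP-1 motif TGANTCA was found in 1 window of Adora1 (6.75% of all windows), the CArG box in 1 window of Ampd3 (1.47%), and the E-box CACGTG in 1 window each of Ampd3 and Slc29a1 (6.02%). A match is a description of the letters and was not tested as a binding site. Adora2a had no window.

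Genes whose levels ran most like the receptors over the 8 arrays were sought among 17896 probes of named RefSeq genes. Nearest to Adora2a were Slc27a5, Lcmt1, 1700001P01Rik, Stmn4 and Hmha1, with Pearson r of 0.998 to 0.996. Nearest to the Adora2b 5′ probe were Cdk12, Plekho2, Riok2, Cnksr3 and Dusp16, with r of 0.996 to 0.992. These correlations follow the split between the 3 cordycepin arrays and the other 5, and are given as a description.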

How the data were processed

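Total RNA from 8 samples was labelled with Cy3 by a 1-colour kit and hybridised to Agilent mouse arrays, and per the file headers the authors extracted the deposited intensity of each spot with Feature Extraction 10.7.3.1, as a mean signal minus a fitted spatial surface, divided by a multiplicative trend. The files place probes on mm9. Each array held 62976 spots, of which 3671 were controls. All arrays lay on 1 slide.

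The 75th percentile over non-control spots was subtracted from log2 intensity, outlier spots were left out and spots of a probe averaged. The 30859 probes well above background throughout at least 1 group entered limma 3.58.1 (R 4.3.3), fitted with a mean for each group, no covariate and Benjamini-Hochberg adjustment over all of them. P-values are two-sided. On simulated data with 200 probes changed by a log2 size of 2, 180, 168 and 180 were recovered in the 3 comparisons, with 4, 7 and 3 false calls. The simulation drew independent noise and treated every probe as detected. It therefore does not cover probes at the edge of detection, such as Adora2a and Ampd1 without cordycepin. The number of arrays limits the precision.

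A probe below background on every array of a group was given as an approximate bound, from the lowest signal well above background on each array. Members and gene lists were chosen with earlier results of these data known. Named were all members, called genes of the further list, Fos, markers, and the 5 genes most correlated with each A2 receptor. Other genes, neighbours, within-array differences and motifs were chosen after the data were seen. One blood marker of the list is not reported here. Alternatives changed the background correction (normexp with an offset of 50 units), scaling, filter, variance model, blocks and arrays used.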

Additional observations from a re-analysis of the deposited data

How the results depend on the processing

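Each result was recomputed under 20 alternatives and 1 more chosen after the data were seen. Of 378 values of the transporter, kinase and deaminase genes, on the brightest probe of each, none was called under another setting and 18 changed sign. Other probes of these genes and the A2 receptors were not among these values. Centring on E1A spike-in probes, which shifted the median of all probes in the serum comparison from -0.02 to -0.13 and against no serum with cordycepin from 0.09 to -0.05, left 1 member probe called (Adora2a) and 1 other pathway gene in cordycepin plus serum against serum, and again 1 and 1 against no serum. The other calls were lost there as the SE of the fold change grew with the spread of the spike-ins. Testing only probes well above background on all 8 arrays left 1 other pathway gene called in each cordycepin comparison, because Ampd1 was not tested. Without a minimum fold change, 4 other pathway genes passed against serum. Leaving out each array in turn gave 3 member probes and 2 other pathway genes called in every case with cordycepin, and 0 and 0 for serum, although without serum replicate 3 the genes were Ampd1 and Ak4. Deviations of same-numbered arrays from their group means correlated at -0.17 to 0.23 over 7 pairs, and those of differently numbered arrays at -0.32 to 0.32 over 14. No pairing by replicate number was seen, but deviations from means of so few arrays cannot exclude it. With the replicate block, 3, 0 and 3 member probes and 2, 0 and 2 other pathway genes were called. Fits of only the groups compared, the slide row as a block, quantile normalisation, limma-trend and retained outlier spots changed no count beyond 1.5 times. Over all probes, normexp correction with its offset reduced the calls for the effect of cordycepin from 3249 to 1328 and for serum from 540 to 230. Spike-in centring reduced these calls to 934 and 21. Probes at the edge of detection, such as Adora2a and Ampd1 without cordycepin, have fold changes that depend on the background correction and its offset.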
